A study of Mus musculus with 9 samples.

Results

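Chromatin is remodeled by proteins that place, remove and read chemical marks on histones and DNA, and by ATP-driven engines that slide or exchange nucleosomes. Here, 78 mouse genes of this kind were followed in prostate stroma during tumor invasion. They were taken by gene symbol from the table that names the spotted cDNA clones of the arrays, as every symbol starting with Kdm, Kmt, Hdac, Smarc, Chd, Ezh, Setd, Kat, Dnmt, Brd or Cbx in the numbered forms of these families. They make up 78 of the 8146 gene symbols on the arrays, are covered by 151 clones, and all 78 could be tested. The families held 19 Kmt, Setd and Ezh genes, 13 Kdm genes, 11 Smarc genes, 8 Hdac genes, 7 Chd genes, 6 Kat genes, 6 Brd genes, 4 Cbx genes and 4 Dnmt genes.

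The values come from 9 two-color arrays, each of the prostate stroma of 1 male FVB mouse carrying the CR2-TAg transgene. The 6 invasive cancer arrays hold stroma next to invasive tumors at 24 weeks of age, and the 3 PIN arrays (replicates 2, 3 and 4) hold stroma next to prostate intraepithelial neoplasia, the preinvasive lesion, at 10 weeks. All mice were hemizygous for the transgene, in which regulatory elements of the cryptidin-2 gene drive SV40 large T antigen in neuroendocrine cells of the prostate, so no group without T antigen was available and the tumors are neuroendocrine. The stroma was cut out by laser microdissection and its RNA amplified. Each sample, labelled with Cy5, was hybridized against a Cy3-labelled pool of 4 PIN samples, and what was deposited for each clone is a log2 ratio, sample divided by pool. A value of 0 therefore stands for the level of the PIN pool only where both dyes read a clone alike. The mean of the 3 PIN arrays was 0.73 for Hdac5 and -0.51 for Kdm1b, and the cause was not tested. The difference between the groups does not depend on where 0 lies. Dyes were not swapped, the pool held RNA of the PIN samples it was compared with, and age and tumor stage changed together, so that the effects of age and of stage cannot be told apart. In bulk stroma, fewer cells of a type and less RNA per cell cannot be told apart either.

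Writers and erasers act on the same residues of histone tails. Ezh1 and Ezh2 are the alternative catalytic subunits of Polycomb repressive complex 2, which methylates histone H3 to keep genes silent, and Ezh2 is known as the form of dividing cells while Ezh1 persists in resting ones. Acetyltransferases of the Kat families loosen chromatin and the deacetylases of the Hdac family reverse this, Smarc and Chd proteins move nucleosomes, and bromodomain (Brd) and chromobox (Cbx) proteins read acetyl and methyl marks. Dnmt enzymes methylate DNA itself.

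Cell type markers differed between the groups. Of the marker genes listed for each cell type, the 7 measured macrophage markers of 18 listed all rose, 5 of 10 fibroblast and pericyte markers and 10 of 21 proliferation markers rose, and 3 of 5 smooth muscle markers fell. Of 6 endothelial markers 2 rose, of 2 skeletal muscle markers 1 fell, and the 1 lymphocyte marker measured of 14 listed did not pass. The array median of the 21 measured proliferation markers of 26 listed was 0.30 to 1.91 on invasive arrays and -0.19 to 0.27 on PIN arrays. For the 6 neuroendocrine markers measured of 16 listed, of which 1 rose, it was 0.43 to 2.21 on invasive arrays and -0.09 to 0.68 on PIN arrays. Of 10 measured epithelial markers 1 rose and 1 fell, and their median was 0.60 on PIN replicate 4, against -1.18 and -0.98 on PIN replicates 2 and 3. A pair of arrays stood apart. Over genes, the correlation of invasive replicate 3 with the other invasive arrays was 0.314 to 0.487, and without it the invasive arrays correlated at 0.491 to 0.753. PIN replicate 4 correlated at -0.313 and -0.257 with the other PIN arrays, which had 0.562 with each other. Over all clones rather than genes these PIN values were 0.176 and 0.189. Over clones, invasive replicate 3 had 0.256 to 0.56 with the other invasive arrays, and those had 0.4 to 0.769 with each other. These ranges overlapped. Invasive replicate 3 had the highest median of proliferation markers and the lowest of macrophage markers (1.05, against up to 3.01 on other invasive arrays).

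Ezh2 and Ezh1 are paralogs whose differences had opposite signs. Ezh2, Cbx3 and Dnmt1 are among the genes with the largest positive differences. They also carry, close to a start site, a word known from binding sites of E2F factors, the cell cycle regulators. Chd7 and Hdac9 had larger positive differences than Dnmt1 (0.61 and 0.56, against 0.49), and no such word was found for them. The regulatory sequences of Ezh2, Ezh1, Cbx3 and Dnmt1 are shown, picked with these differences and words known. Each is the RefSeq reference sequence (GRCm38.p6) of 300 bases, 250 before and 50 after a transcription start site, written along the strand of the gene, with capitals marking the words TTTCCCGC, TTTCGCGC, TTTGCCGC and TTTGGCGC or their reverse complements. Cbx3 has 2 such windows and Dnmt1 has 3, of which 1 with a word is shown. The Ezh2 window lies at chr6:47594981-47595280 (minus strand), that of Ezh1 at chr11:101226414-101226713 (minus strand), that of Cbx3 at chr6:51470366-51470665 (plus strand) and that of Dnmt1 at chr9:20952574-20952873 (minus strand).
Ezh2: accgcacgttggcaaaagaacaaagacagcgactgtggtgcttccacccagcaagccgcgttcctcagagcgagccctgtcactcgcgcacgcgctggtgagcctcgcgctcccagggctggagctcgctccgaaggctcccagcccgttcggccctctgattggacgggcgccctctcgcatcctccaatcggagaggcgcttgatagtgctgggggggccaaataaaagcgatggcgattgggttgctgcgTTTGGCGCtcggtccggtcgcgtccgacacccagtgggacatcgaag
Ezh1: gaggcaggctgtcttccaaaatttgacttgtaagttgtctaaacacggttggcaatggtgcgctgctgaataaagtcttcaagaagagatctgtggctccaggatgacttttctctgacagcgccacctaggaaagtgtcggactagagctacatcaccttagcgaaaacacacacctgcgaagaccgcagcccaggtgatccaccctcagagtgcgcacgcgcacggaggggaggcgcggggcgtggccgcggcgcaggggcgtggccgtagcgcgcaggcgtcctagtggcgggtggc
Cbx3: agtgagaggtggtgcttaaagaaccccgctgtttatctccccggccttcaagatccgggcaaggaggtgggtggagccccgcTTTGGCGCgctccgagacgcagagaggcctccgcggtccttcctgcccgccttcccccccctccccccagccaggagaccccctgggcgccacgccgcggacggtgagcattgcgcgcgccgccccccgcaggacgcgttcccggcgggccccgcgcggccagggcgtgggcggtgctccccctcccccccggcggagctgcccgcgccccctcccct
Dnmt1: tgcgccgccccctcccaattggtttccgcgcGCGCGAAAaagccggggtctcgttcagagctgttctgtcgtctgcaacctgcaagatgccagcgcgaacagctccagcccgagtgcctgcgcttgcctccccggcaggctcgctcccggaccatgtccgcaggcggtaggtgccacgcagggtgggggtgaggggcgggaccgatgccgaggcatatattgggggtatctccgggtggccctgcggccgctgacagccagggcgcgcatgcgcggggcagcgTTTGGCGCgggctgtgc
The word began 3 bases after the start site of Ezh2. No such word stood in the Ezh1 window, which held 23 CG dinucleotides against 31 in that of Ezh2, 34 in that of Cbx3 and 33 in that of Dnmt1.

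Among the 62 genes with a window, 7 (11.3%) had a word in at least 1 window, against 313 of 6589 tested genes (4.75%). Counted by window, 7 of the 88 windows of chromatin genes had a word (7.95%), against 744 of all 32851 windows (2.26%). Windows of the chromatin genes held a median of 24 CG dinucleotides, those of all tested genes 20 and all windows 7. The differences between invasive cancer and PIN stroma of these 7 genes were 0.67 for Ezh2, 0.66 for Cbx3, 0.49 for Dnmt1, 0.35 for Brd7, 0.21 for Smarcd1, -0.06 for Kat2a and -0.24 for Kmt5c on the log2 scale. Not one of them passed the test. A match describes these letters only, and binding was not measured.

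The chromatin genes as a group lay close to their PIN levels. A gene passed at an adjusted p under 0.15 from limma, the rate of false discoveries used in the study, with Benjamini-Hochberg adjustment over all 8106 genes tested. By this rule none of the 78 genes rose and 2 fell, Ezh1 and Kdm1b, which is 2.56% of the group. Over all genes tested 5.64% passed, 3.75% higher and 1.89% lower. At an adjusted p under 0.05 none of the 78 passed, against 0.938% of all genes. At an unadjusted p under 0.05 from limma stood 7 of the 78 (8.97%), against 15.0% of all genes. Differences are invasive minus PIN on the log2 scale throughout. They ran between -1.35 and 0.67, with 36 positive and 42 negative, and their median was -0.02 (0.02 over all genes). The median size of a difference was 0.183, against 0.227 over all genes. A single member, Kdm1b, differed by more than 1 on the log2 scale (1.28% of the group, 4.98% of all genes). The 95% confidence interval of the difference lay wholly between -1 and 1 for 68 of the 78 genes (87.2%), against 73.0% of all genes, so that for these genes a change larger than a doubling or a halving lay outside the interval. The 78 genes rest on 151 clones, and all 8146 symbols on 12563. The number of clones averaged per symbol was not matched when sizes and intervals were compared with those of all genes. The invasive arrays did not overlap the PIN arrays for 5 of the 78 (6.41%), against 7.85% of all genes tested. Of these 5, Ezh2, Chd7 and Smarcad1 were higher and Ezh1 and Kat14 lower in invasive cancer stroma.

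**Figure D1:**
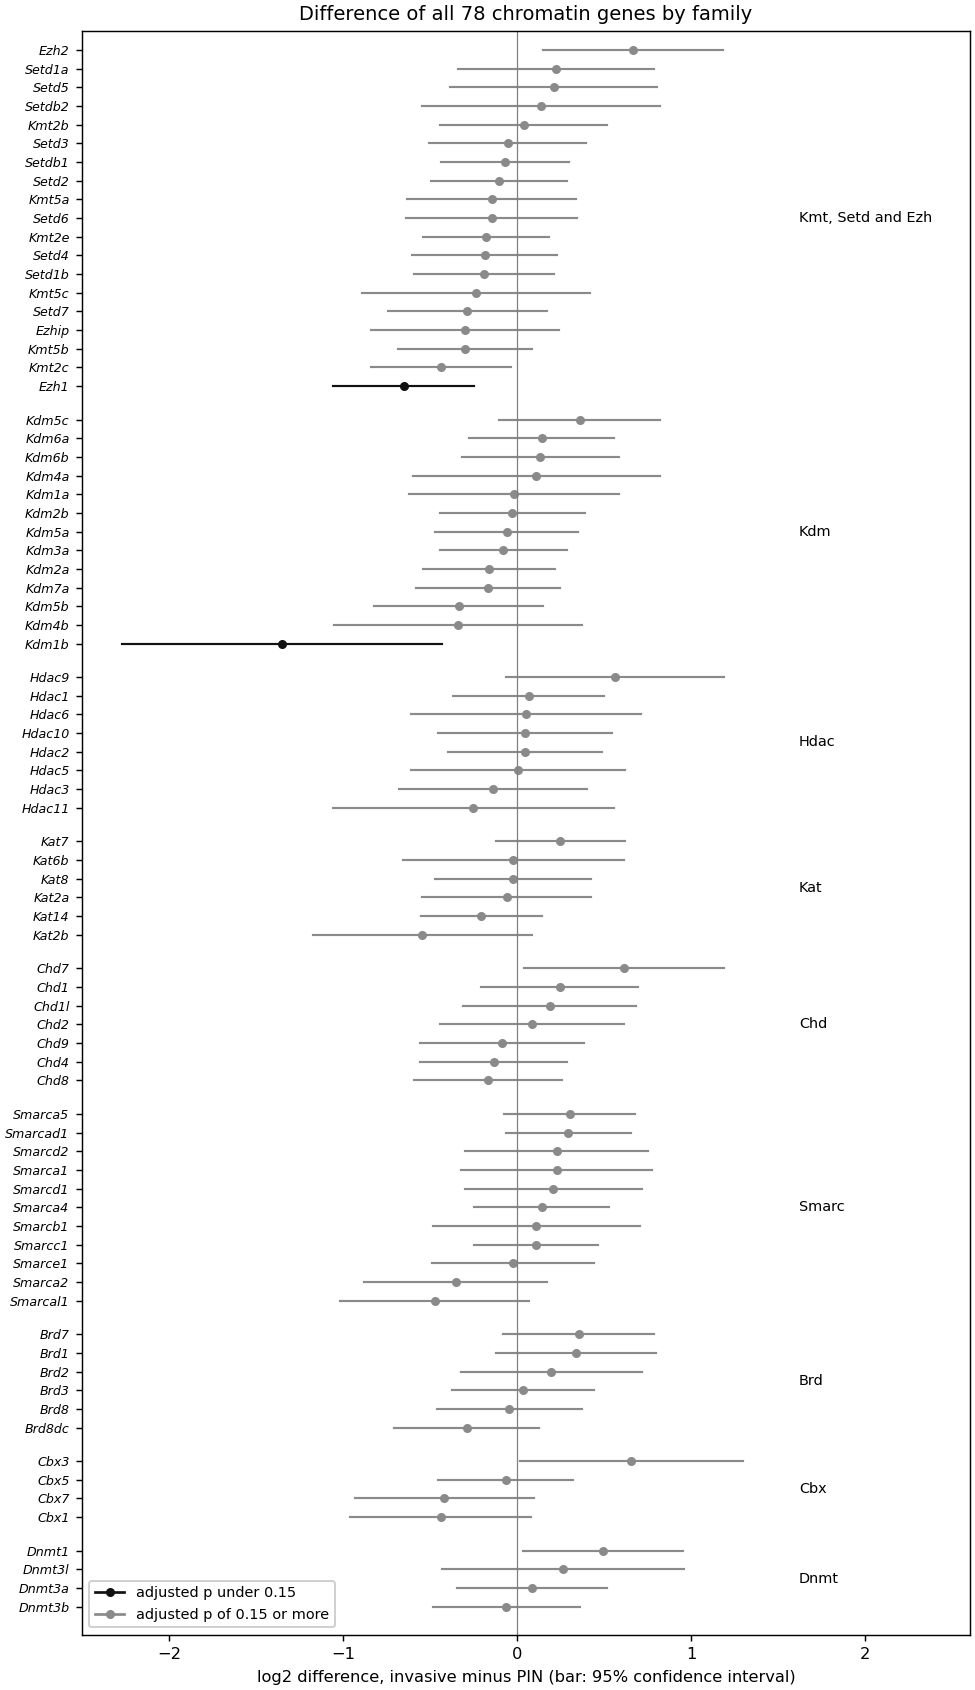
Log2 difference of each of the 78 genes, invasive cancer minus PIN stroma, by family; points are limma estimates and bars their 95% confidence intervals (6 invasive and 3 PIN arrays). The 2 genes in black, Ezh1 and Kdm1b, passed at an adjusted p under 0.15, both with lower values in invasive cancer stroma, and most other intervals lie within 1 log2 unit of 0.

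The Polycomb methyltransferases Ezh1 and Ezh2 had differences of opposite sign, of which that of Ezh1 passed. Ezh1 ranged between -0.78 and -0.45 on invasive arrays, with a median of -0.51, against 0.09, -0.21 and 0.40 on PIN replicates 2, 3 and 4. Every invasive value lay below every PIN value. Ezh1 fell by 0.65 (SE 0.19, 1.57-fold, adjusted p = 0.119 from limma). Both of its clones had negative differences, -0.88 and -0.42, and the clone with -0.88 was the only 1 of the 151 clones that passed on its own (adjusted p = 0.110 from limma over 17207 clones, of which 2.16% passed). The call on Ezh1 was lost without invasive replicate 2, 4, 5 or 6 (adjusted p = 0.198, 0.210, 0.170 and 0.186 from limma) and without any 1 of the PIN arrays (0.331, 0.178 and 0.264 for replicates 2, 3 and 4), while its difference stayed between -0.80 and -0.50. Without invasive replicate 3 its adjusted p was 0.0788.

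Ezh2 was 0.52 to 1.45 on invasive arrays, with a median of 0.72, against -0.19, 0.14 and 0.43 on PIN replicates 2, 3 and 4. All 6 invasive values were above the PIN values, and the highest, on invasive replicate 3, stood well above the other 5 (at most 0.85). The difference was 0.67 (SE 0.24, adjusted p = 0.194 from limma), which did not pass. It was 0.54 without invasive replicate 3 (adjusted p = 0.161) and 0.82 without PIN replicate 4 (adjusted p = 0.172, both from limma). Its clones differed by 0.98 and 0.35. On the same arrays the median of proliferation markers was 0.30, 1.03, 1.91, 1.01, 0.85 and 0.99 for invasive replicates 1 to 6, against -0.19, -0.05 and 0.27 for PIN replicates 2 to 4. Ezh2 was 0.53, 0.85, 1.45, 0.52, 0.72 and 0.71 on invasive replicates 1 to 6. The lowest invasive array was thus replicate 4 for Ezh2 but replicate 1 for the proliferation markers. Replicate 3 was the highest invasive array, and replicate 4 the highest PIN array, in both measures. The same held for the median of epithelial markers (-0.33 on invasive replicate 3 and 0.60 on PIN replicate 4). That of neuroendocrine markers was also highest on invasive replicate 3 (2.21), but among PIN arrays on replicate 2 (0.68, against 0.12 on replicate 4). The part of dividing cells, or of any cell type, in the Ezh2 values was not tested.

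Since both genes were read on every array, the balance between them can be given per mouse. Ezh2 minus Ezh1 was 1.01 to 1.93 on invasive arrays, with a median of 1.28, against -0.27, 0.35 and 0.04 on PIN replicates 2, 3 and 4. The groups were separated by a wide gap, and the mean difference was 1.32, or 2.50-fold. This ratio was chosen after its values had been seen and is given with no test. It compares changes relative to the PIN pool and says nothing of which gene is more abundant.

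**Figure D2:**
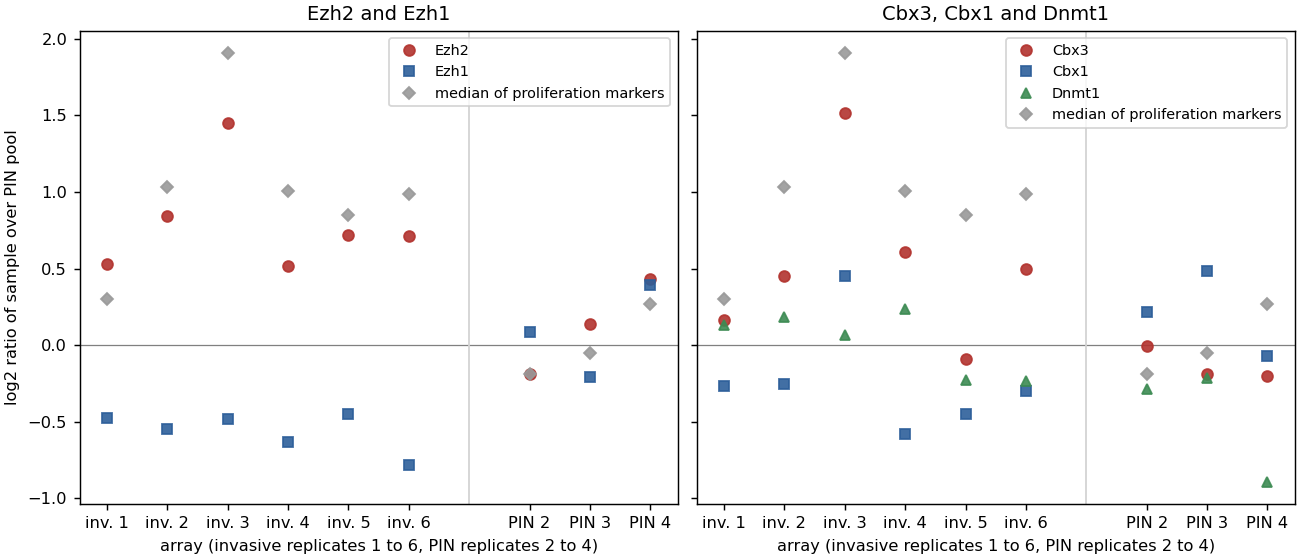
Log2 ratio of sample over PIN pool for each array, with Ezh2, Ezh1 and the median of 21 proliferation markers on the left and Cbx3, Cbx1, Dnmt1 and the same median on the right. Ezh2 lies between 0.52 and 1.45 and Ezh1 between -0.78 and -0.45 on the 6 invasive arrays, and invasive replicate 3 has the highest Ezh2, Cbx3, Cbx1 and proliferation values among the invasive arrays.

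The other genes of the Kmt, Setd and Ezh family lay mostly below 0, without passing. With Ezh1 and Ezh2 counted, 14 of its 19 genes had negative differences, against 3890 of all 8106 genes tested. The family median was -0.15. Kmt2c, which methylates histone H3 at enhancers, was -0.64 to -0.21 on invasive arrays with a median of -0.42, against -0.03, 0.22 and -0.25 on PIN replicates 2, 3 and 4. Only invasive replicate 3 reached into the PIN range. The difference was -0.44 (SE 0.18, adjusted p = 0.288 from limma), and its 3 clones gave -0.89, -0.25 and -0.16. Fitted among all single clones, the clone of -0.89 did not pass (adjusted p = 0.190 from limma). With 1 clone kept per gene, that clone stood for Kmt2c, which then passed (adjusted p = 0.136 from limma). The clone kept was that with the most values and then the largest SD over all arrays. That choice can favor clones that differ between the groups. Kmt2e, a related protein that binds methylated histone H3, was -0.24 to 0.05 on invasive arrays against 0.14, 0.14 and 0.05 on PIN replicates 2, 3 and 4, a difference of -0.18 (SE 0.17). Its 4 clones ran between -0.82 and 0.36, the widest spread of any member, so the symbol has no single direction at the level of clones. The remaining genes of the family, among them Setd2, which marks transcribed gene bodies, Setdb1, which silences repeats, and Kmt2b, had differences of -0.30 to 0.22. The 2 most negative of these were Kmt5b, which methylates histone H4, and Ezhip, an inhibitor of Polycomb repressive complex 2, at -0.30 each.

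Among demethylases a single gene fell and the other 12 did not pass. Kdm1b, a flavin-dependent enzyme that removes methyl groups from histone H3 and is best known from oocytes, ranged between -2.76 and -0.51 on invasive arrays, with a median of -2.02, against 0.07, -0.68 and -0.91 on PIN replicates 2, 3 and 4. The groups overlapped, because invasive replicate 3 lay above the PIN replicates 3 and 4. Kdm1b fell by 1.35 (SE 0.42, 2.55-fold, adjusted p = 0.146 from limma), which was the largest difference of all 78 genes. It rests on 1 clone, and a further clone that names both Kdm1b and another gene was left out. Without invasive replicate 3 the difference was -1.62 (adjusted p = 0.0165). The call was lost without invasive replicate 2, 4, 5 or 6 (adjusted p = 0.246, 0.231, 0.234 and 0.228 from limma) and without any 1 PIN array (0.449, 0.303 and 0.164 for replicates 2, 3 and 4).

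The smooth muscle markers, of which 3 of 5 fell, are set beside Kdm1b here, a pairing made with the values known. The median of the 5 measured of 12 listed was -0.90, -3.70, -0.25, -1.87, -2.003 and -3.91 on invasive replicates 1 to 6, where Kdm1b had -1.44, -2.23, -0.51, -1.81, -2.41 and -2.76. On PIN replicates 2, 3 and 4 the marker median was 0.18, 0.40 and -0.58. Invasive replicate 3 was highest and replicate 6 lowest in both, and PIN replicate 4 was the lowest PIN array in both. The order of invasive replicates 2 and 5 and of PIN replicates 2 and 3 differed. Invasive replicates 3 and 6 were also highest and lowest in the medians of epithelial (-0.326 and -1.335) and neuroendocrine markers (2.21 and 0.43). In that of fibroblast and pericyte markers they were lowest and highest (0.38 and 1.61). In that of macrophage markers replicate 3 was lowest (1.05) and replicate 4 highest (3.01), with replicate 6 at 2.80. Ezh1 was also lowest on invasive replicate 6, but its invasive values spanned only -0.78 to -0.45. The part of smooth muscle, or of any other cell type, in the results of Kdm1b and Ezh1 was not tested.

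Of the other 12 demethylase genes, 4 had positive and 8 negative differences and none passed. Kdm5c, an X-linked demethylase of active promoters, was -0.38 to 0.27 on invasive arrays with a median of -0.02, against -0.28, -0.11 and -0.71 on PIN replicates 2, 3 and 4 (difference 0.36, SE 0.21, adjusted p = 0.474 from limma). Its difference came largely with the low PIN replicate 4, and without that array was 0.18. Kdm5b, a relative with the same substrate, had -0.69 to 0.20 on invasive arrays with a median of -0.17, against 0.44, -0.08 and 0.07 on PIN replicates 2, 3 and 4 (difference -0.34, SE 0.22, adjusted p = 0.533 from limma). It was -0.19 without PIN replicate 2. Kdm4b, which demethylates histone H3 in heterochromatin, was -0.75 to -0.26 on 5 invasive arrays and 0.84 on replicate 3, against 0.30, 0.11 and -0.33 on PIN replicates 2, 3 and 4. Its difference of -0.34 had a 95% confidence interval of -1.06 to 0.37, and without invasive replicate 3 was -0.57. Kdm6a and Kdm6b, the demethylases that oppose Ezh2, had differences of 0.14 (95% confidence interval -0.27 to 0.56) and 0.13 (-0.32 to 0.58). Kdm1a, the paralog of Kdm1b, had -0.02 (SE 0.28).

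**Figure D3:**
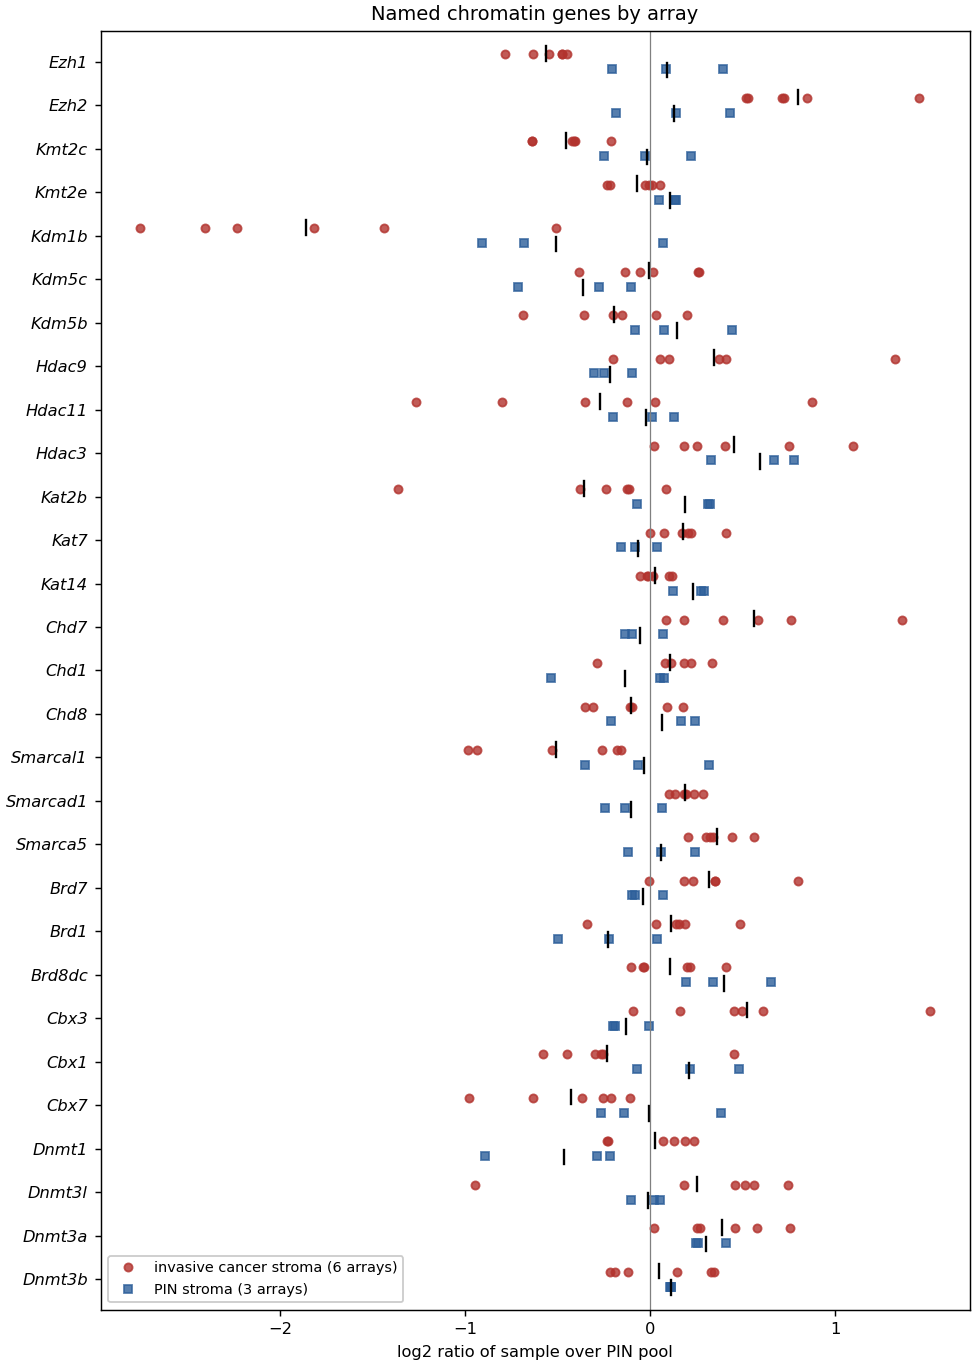
Log2 ratio of sample over PIN pool on each array for the 29 genes described one by one (circles, 6 invasive cancer arrays; squares, 3 PIN arrays; black ticks, group means). Ezh1, Ezh2, Kat14, Chd7 and Smarcad1 have no overlap between groups, and Kdm1b has the lowest values, down to -2.76 on an invasive array.

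Enzymes that add and remove acetyl groups showed no change past the threshold. Kat2b, a transcriptional coactivator, was -1.36 to 0.09 on invasive arrays with a median of -0.18, against -0.07, 0.31 and 0.32 on PIN replicates 2, 3 and 4. The low extreme was invasive replicate 3 alone. Its difference was -0.55 (SE 0.29, adjusted p = 0.407 from limma), and -0.34 without that array. Kat14, part of an acetyltransferase complex, had -0.06 to 0.12 on invasive arrays with a median of 0.00, against 0.13, 0.29 and 0.27 on PIN replicates 2, 3 and 4. The groups did not overlap, but the gap was narrow and the difference of -0.21 (SE 0.16, adjusted p = 0.613 from limma) did not pass. Kat7, which acetylates histones at replication origins, had 0.00 to 0.41 on invasive arrays with a median of 0.19, against -0.08, -0.16 and 0.04 on PIN replicates 2, 3 and 4, overlapping at 1 end (difference 0.25, SE 0.17). The other 3 Kat genes, Kat2a, Kat6b and Kat8, differed by -0.06 to -0.02.

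In the deacetylase family 6 of 8 differences were positive and the median was 0.05. Hdac9, a class II enzyme known to repress muscle genes, was -0.20 to 1.32 on invasive arrays with a median of 0.24, against -0.30, -0.25 and -0.10 on PIN replicates 2, 3 and 4. Invasive replicate 6 was the highest array by far and replicate 1 lay among the PIN values (difference 0.56, SE 0.29, adjusted p = 0.390 from limma). Without replicate 6 the difference was 0.36. Hdac11 spread the most among deacetylases, between -1.26 and 0.87 on invasive arrays, against 0.01, 0.13 and -0.20 on PIN replicates 2, 3 and 4 (difference -0.25, SE 0.37). Its difference was -0.48 without invasive replicate 3, -0.15 without replicate 5 and -0.05 without replicate 6. Hdac3, the enzyme of the nuclear corepressor complexes, was 0.02 to 1.10 on invasive arrays with a median of 0.33, against 0.78, 0.33 and 0.67 on PIN replicates 2, 3 and 4 (difference -0.14, SE 0.25). Leaving out invasive replicate 3, 5 or 6 gave differences of -0.27, -0.09 and -0.05, and leaving out PIN replicate 2 or 3 gave -0.05 and -0.27. Hdac1 and Hdac2, the paired catalytic subunits of several repressor complexes, differed by 0.07 (95% confidence interval -0.37 to 0.50) and 0.05 (-0.40 to 0.49). For 5 of the 8 deacetylases invasive replicate 3 was the highest invasive array, against 22.4% of all genes, and over the 78 genes this held for 25 (32.1%). It was the lowest invasive array for 12 of the 78 (15.4%, against 24.0% of all genes).

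Among the ATP-dependent remodelers, Chd7 had the largest difference. Chd7, an enhancer-bound helicase, was 0.08 to 1.36 on invasive arrays with a median of 0.49, against -0.13, 0.07 and -0.10 on PIN replicates 2, 3 and 4. All invasive values were higher, the lowest of them by a narrow margin, and replicate 3 was again the highest. The difference was 0.61 (SE 0.26, adjusted p = 0.296 from limma) and 0.46 without invasive replicate 3. Its 3 clones gave 1.10, 0.71 and 0.03, so that 1 of them showed almost no difference. Chd1, a remodeler of transcribed genes, had -0.29 to 0.33 on invasive arrays, against -0.54, 0.05 and 0.07 on PIN replicates 2, 3 and 4 (difference 0.24, SE 0.21). This difference rested on the low PIN replicate 2, without which it was 0.04. Chd8 had -0.35 to 0.18 on invasive arrays, against 0.17, 0.24 and -0.21 on PIN replicates 2, 3 and 4 (difference -0.17, SE 0.19), or -0.08 without PIN replicate 3 and -0.31 without PIN replicate 4. The other Chd genes, with Chd4 of the NuRD deacetylase complex among them, differed by -0.14 to 0.19.

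Smarc genes had 8 positive and 3 negative differences with a median of 0.14. Smarcad1, a remodeler that helps to restore silent chromatin after replication, was tightly grouped at 0.10 to 0.29 on invasive arrays with a median of 0.19, against -0.13, -0.24 and 0.06 on PIN replicates 2, 3 and 4. The groups did not overlap (difference 0.29, SE 0.16, adjusted p = 0.435 from limma). Smarca5, the motor of the ISWI complexes, had 0.20 to 0.56 on invasive arrays with a median of 0.33, against -0.12, 0.06 and 0.24 on PIN replicates 2, 3 and 4 (difference 0.30, SE 0.17, adjusted p = 0.453 from limma). All of its 3 clones were positive, at 0.45, 0.32 and 0.15. Smarcal1, which anneals DNA strands at stalled replication forks, was -0.98 to -0.16 on invasive arrays with a median of -0.39, against -0.07, 0.32 and -0.35 on PIN replicates 2, 3 and 4 (difference -0.47, SE 0.25, adjusted p = 0.406 from limma), and differed by -0.30 without PIN replicate 3. The 2 alternative motors of SWI/SNF, Smarca4 and Smarca2, differed by 0.14 (95% confidence interval -0.25 to 0.53) and -0.35 (-0.88 to 0.17), and the clones of Smarca2 disagreed at -0.81 and 0.10. The core subunits Smarcb1, Smarcc1 and Smarce1 differed by 0.11, 0.11 and -0.02.

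Of the readers of histone marks, none passed. Cbx3, a heterochromatin protein, was -0.09 to 1.51 on invasive arrays with a median of 0.47, against -0.01, -0.19 and -0.20 on PIN replicates 2, 3 and 4. Invasive replicate 3 was far the highest, and replicate 5 fell inside the PIN range (difference 0.66, SE 0.29, adjusted p = 0.321 from limma). The difference was 0.46 without invasive replicate 3. Its paralog Cbx1 was -0.58 to 0.45 on invasive arrays with a median of -0.28, against 0.22, 0.48 and -0.07 on PIN replicates 2, 3 and 4. Here the other 5 invasive arrays lay below all PIN arrays and replicate 3 lay among them. The difference was -0.44 (SE 0.24, adjusted p = 0.418 from limma), with clones at -0.48 and -0.40, and without invasive replicate 3 it was -0.58 and passed (adjusted p = 0.121). Cbx5, the third heterochromatin paralog, differed by -0.07 (SE 0.18).

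Within arrays, Cbx3 minus Cbx1 was 0.36 to 1.19 on invasive arrays with a median of 0.75, against -0.22, -0.67 and -0.13 on PIN replicates 2, 3 and 4. The groups did not overlap, although each gene overlapped on its own, and the mean difference was 1.10, or 2.14-fold. This pair was also chosen after its values had been seen and has no test. Cbx7, a Polycomb reader of repressive complex 1, had -0.98 to -0.11 on invasive arrays with a median of -0.31, against -0.14, -0.27 and 0.39 on PIN replicates 2, 3 and 4 (difference -0.42, SE 0.24, adjusted p = 0.443 from limma). Without PIN replicate 4 that difference was -0.22.

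The bromodomain genes gave 4 positive and 2 negative differences. Brd7, a subunit of a SWI/SNF complex, was -0.01 to 0.80 on invasive arrays with a median of 0.29, against -0.10, 0.07 and -0.08 on PIN replicates 2, 3 and 4 (difference 0.35, SE 0.20, adjusted p = 0.440 from limma). Invasive replicate 5 alone lay within the PIN range. Brd1, a scaffold of acetyltransferase complexes, had -0.34 to 0.49 on invasive arrays, against -0.22, 0.04 and -0.50 on PIN replicates 2, 3 and 4 (difference 0.34, SE 0.21). It was 0.20 without PIN replicate 4 and 0.12 with the median of its 3 clones. Brd8dc had -0.11 to 0.41 on invasive arrays, against 0.65, 0.34 and 0.19 on PIN replicates 2, 3 and 4 (difference -0.29, SE 0.19), and differed by -0.16 without PIN replicate 2. The acetyl readers Brd2 and Brd3, relatives of the best known target of bromodomain inhibitors, differed by 0.20 and 0.03.

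All 4 DNA methyltransferase genes were measured and none passed. Dnmt1, which copies methylation onto newly made DNA, was -0.23 to 0.24 on invasive arrays with a median of 0.10, against -0.29, -0.22 and -0.89 on PIN replicates 2, 3 and 4. Invasive replicates 5 and 6 lay just below the highest PIN array, and PIN replicate 4 was far below every other array. The difference was 0.49 (SE 0.21, adjusted p = 0.296 from limma), and 0.28 without PIN replicate 4. Unlike Ezh2 and Cbx3, Dnmt1 did not peak on invasive replicate 3, where it stood at 0.07. Dnmt3a and Dnmt3b, the enzymes that place methylation anew, differed by 0.08 (SE 0.20) and -0.06 (SE 0.19), each within its replicate spread. With 1 array left out the differences were 0.01 to 0.16 for Dnmt3a (lowest without invasive replicate 5, highest without replicate 6) and -0.12 to -0.01 for Dnmt3b (lowest without invasive replicate 3, highest without replicate 4). Dnmt3a was 0.02 to 0.75 on invasive arrays, against 0.25, 0.41 and 0.26 on PIN replicates 2, 3 and 4. Dnmt3b was -0.22 to 0.34 on invasive arrays, against 0.11, 0.11 and 0.11 on PIN replicates 2, 3 and 4, and its 3 clones gave -0.68, 0.12 and 0.38. Dnmt3l, their catalytically inactive partner, was -0.94 to 0.74 on invasive arrays with a median of 0.49, against 0.06, -0.10 and 0.02 on PIN replicates 2, 3 and 4 (difference 0.26, SE 0.32). Leaving out invasive replicate 3, its lowest array, gave 0.50 (adjusted p = 0.164 from limma), and leaving out replicate 2, its highest, gave 0.16.

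Clones of 1 symbol can stand for different stretches or splice forms of a transcript, and they did not always go together. Of the 44 genes with 2 or more clones, 21 had all clones on 1 side of 0 and 23 had clones on both sides. The spread between the clones of a gene had a median of 0.41 and exceeded 1 in 3 genes, Kmt2e, Chd7 and Dnmt3b. Of the 151 clones, 10 had an unadjusted p under 0.05 from limma and 1 passed. The other 34 genes, including Kdm1b, Dnmt1, Cbx3 and Hdac9, rest on 1 clone, where no such check exists.

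**Figure D4:**
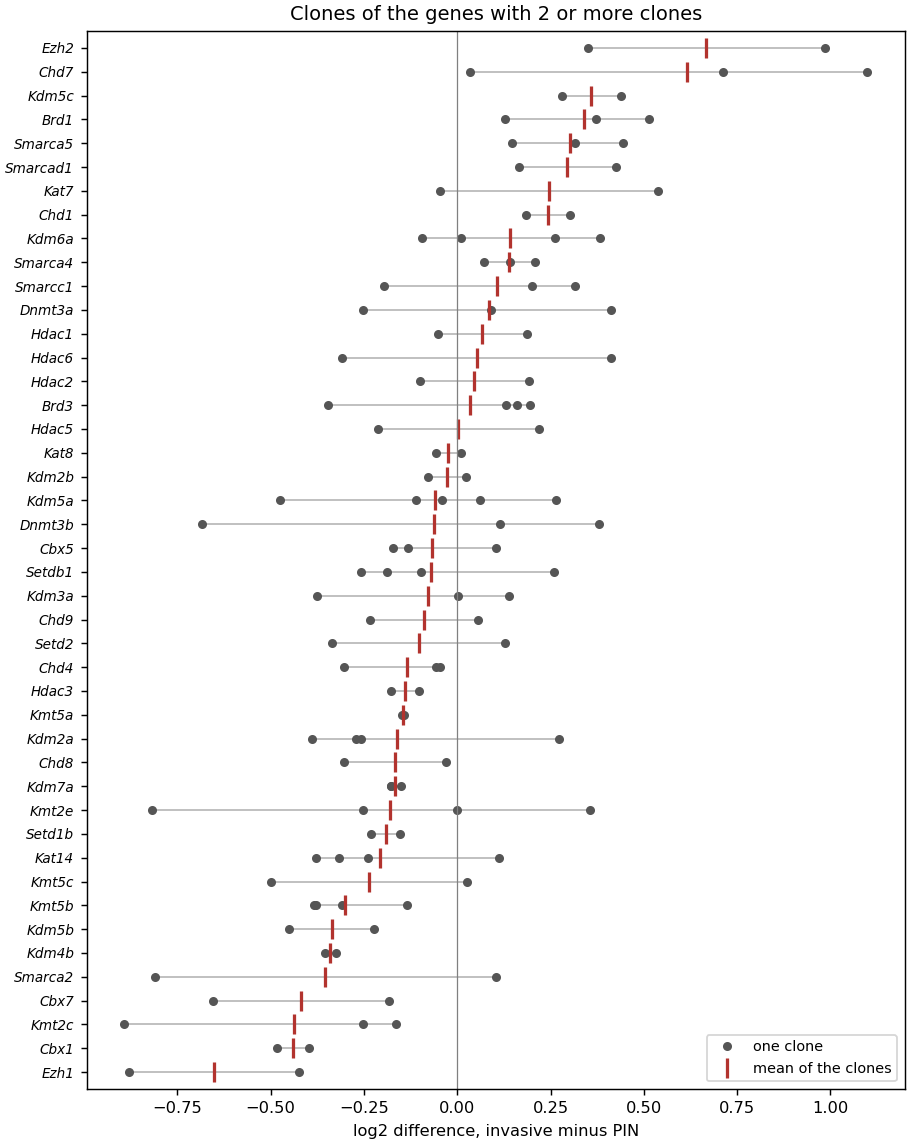
Log2 difference, invasive cancer minus PIN stroma, of every clone of the 44 genes with 2 or more clones (points) and their mean (vertical ticks), ordered by the mean. Both clones of Ezh1 and of Cbx1 lie below 0 and both of Ezh2 above it, while the clones of Kmt2e and Dnmt3b lie on both sides.

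Partner proteins, which hold these enzymes in complexes or work beside them, were counted in the same way. Of 201 genes listed 140 were tested, of which 1 rose and 1 fell (1.43% together, against 5.64% of all genes tested), and the groups did not overlap for 8 of them (5.71%, against 7.85%). None of the 23 Polycomb and heterochromatin partners passed, and their differences stayed between -0.18 and 0.40. The upper value was that of Eed, the subunit that Ezh1 and Ezh2 share, at -0.09 to 0.55 on invasive arrays, against -0.59, -0.13 and 0.16 on PIN replicates 2, 3 and 4 (adjusted p = 0.418 from limma). None of the 21 subunits of deacetylase complexes and sirtuins passed, with Rbbp7, a histone-binding subunit, nearest at -0.70 (SE 0.23, adjusted p = 0.159 from limma), and none of 26 genes of acetyltransferase complexes passed.

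Among 29 subunits of remodeling complexes 1 fell. Actr8, a nuclear actin-related protein of the INO80 remodeler, was -0.73 to -0.23 on invasive arrays with a median of -0.56, against 0.15, -0.08 and 0.17 on PIN replicates 2, 3 and 4, without overlap. Actr8 fell by 0.61 (SE 0.18, 1.52-fold, adjusted p = 0.123 from limma). Of 14 histone chaperones 1 rose, and the median difference over the 14 was 0.17. Differences were positive for 12 of them, against 4216 of all 8106 genes tested. Chaf1a, the large subunit of the factor that loads histones onto replicating DNA, was 0.56 to 1.12 on invasive arrays with a median of 0.80, against 0.09, 0.15 and 0.14 on PIN replicates 2, 3 and 4. Every invasive value was above every PIN value, and Chaf1a rose by 0.67 (SE 0.18, 1.59-fold, adjusted p = 0.105 from limma). For 7 of the 14 chaperones invasive replicate 3 was the highest invasive array. None of 27 other methylation genes passed, with Nsd2, a histone methyltransferase, nearest at 0.88 (SE 0.29, adjusted p = 0.162 from limma). The call on Chaf1a was lost without invasive replicate 2 or 4 (adjusted p = 0.192 each) and without PIN replicate 2, 3 or 4 (0.324, 0.268 and 0.165, all from limma). That on Actr8 held only without invasive replicate 1 or 3 (adjusted p = 0.142 and 0.0857) and was lost without any 1 of the others (0.151 to 0.360 from limma).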

How the data were processed

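Log2 ratios were deposited by the authors for 9 arrays of the same 17664 spotted cDNA clones: the authors amplified RNA of microdissected stroma, labelled sample with Cy5 and the pool of 4 PIN samples with Cy3, read the spots with ScanAlyze and applied print-tip group lowess within arrays in SMA, with no background subtracted. Versions are not given in the sources used here, and the array of a further PIN sample of the study was not analysed here. Spot intensities were not used, so dim clones were not filtered. The precision given depends on the number of arrays and on the spread of values between them, dim clones included. Each array held 17189 to 17206 values.

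Of 17664 rows, 12563 had 1 gene symbol in the platform annotation, 412 several and 4689 none; those with several or none were left out of tests of genes, among them 2 naming a chromatin gene beside another gene. All 78 symbols matched current RefSeq symbols. The gene value on an array is the mean of its clones. A gene needed a value on 4 or more invasive arrays and 2 or more PIN arrays, and the difference, invasive minus PIN, was tested two-sided by eBayes after lmFit (limma 3.58.1, R 4.3.3) and adjusted by Benjamini-Hochberg over all 8106 genes. Every adjusted p is from limma. Single clones were fitted in the same way. Intervals are 95% confidence intervals of the difference, SE is its standard error. The fit was tested on simulated data.

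The members, the partner and marker lists and the tests were chosen with earlier results of these data known. The smooth muscle markers were set beside Kdm1b with its values known. Genes given with array values are those that passed, the 3 with the smallest p in each family, the 2 largest differences each way, those whose clones had opposite signs and differed by over 1, and up to 3 passing genes of each partner list; Kdm4b, Eed, Rbbp7 and Nsd2, the within-array ratios, the genes with a promoter word, and others given by difference alone were chosen after their values were seen. Alternatives were array weights, robust empirical Bayes, a t-test with unequal variances (Welch), 3 between-array normalizations and a value on all 9 arrays. Further ones were 2 other ways to combine clones, a threshold of 0.05, leaving out each array and a replicate block. The study's own t-test, on single clones and with a further PIN array, was not repeated. Replicates are separate mice. Python 3.11.15 with pandas 2.3.3, numpy 2.4.6, scipy 1.17.1 and matplotlib 3.10.9 served for tables and figures.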

Additional observations from a re-analysis of the deposited data

Results flagged for a closer look

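Dixon's limit is passed by chance in about 1 in 20 sets of normally distributed values. The share of all genes that pass it is not given here, and invasive replicate 3 also stood apart over all genes. The count that follows therefore cannot be read as particular to the chromatin genes. For 9 of the 78 genes, 1 invasive array lay farther from the other 5 than Dixon's limit for 6 values allows. On 5 of these the distant array was invasive replicate 3: Ezh2 was 1.45 there (0.52 to 0.85 on the other invasive arrays), Kdm4b 0.84 (-0.75 to -0.26), Cbx1 0.45 (-0.58 to -0.26), Dnmt3l -0.94 (0.18 to 0.74) and Kat2b -1.36 (-0.38 to 0.09). Hdac2 stood at 0.45 on invasive replicate 4 (-0.09 to -0.01 on the others) and Setd4 at -0.65 on the same array (-0.14 to -0.06). Cbx5 was -0.30 on invasive replicate 5 (0.04 to 0.16 on the others), and Kdm2a was -0.42 on invasive replicate 6 (-0.08 to 0.08).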

How the results depend on the processing

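Under 20 alternatives, 543 of 580 differences of the 29 named genes kept their direction and their side of the threshold. Of the others 23 lost a call, 9 gained a call and 5 changed sign. Only Ezh1 and Kdm1b had a call to lose, so all 23 losses were theirs. The high count of unchanged values therefore does not mean that these calls were stable. Of the 29 genes, 26 never changed sign. Signs turned for Dnmt3a (-0.0885 with quantile normalization, -0.0261 with scaling to one median absolute log ratio, -0.25 with one clone per gene), Dnmt3b (0.0717 with the median of clones) and Hdac11 (0.16 with the replicate block), and the cause was not tested. The count of genes that fell, 2 as reported, was 0 with the Welch t-test, 1 with quantile normalization (Ezh1) and 0 with scaling. It was 0 at an adjusted p under 0.05 and 0 with the replicate block. With one clone per gene, chosen by its number of values and then its SD over all arrays, it was 3 (Kmt2c added, adjusted p = 0.136 from limma). With array weights 5 fell and 4 rose (Ezh1, Kdm1b, Kmt2c, Smarcal1 and Cbx1, against Ezh2, Chd7, Cbx3 and Smarca5), while 20.1% of all genes passed. Leaving out 1 array gave 0 to 3 that fell and 0 that rose, with 0 without PIN replicate 2, 3 or 4, or invasive replicate 2, 4, 5 or 6, and 3 without invasive replicate 3. The 5 genes without overlap were 4 to 6 under the other settings that gave this count and 5 to 13 with 1 array left out (8, 10 and 10 without invasive replicate 1, 3 or 5, 9 and 13 without PIN replicate 2 or 4). This count was not computed for the t-test, robust fit, weights, quantile, threshold and block settings. The median difference stayed between -0.07 and -0.01. All genes tested that passed numbered 457 as reported, 207 with the Welch t-test, 1627 with array weights, 76 at an adjusted p under 0.05, 90 with the block and 37 to 896 without 1 array. Same-numbered invasive and PIN arrays deviated with correlations of -0.0858, -0.1 and -0.0187 for replicates 2, 3 and 4, so the numbers were not taken to pair mice, and the replicate block left 0 genes that fell.

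With 6 against 3 arrays, no dye swap and 1 clone for 34 of the 78 genes, absence of a call sets only the limits of the intervals given. The pool holds PIN samples, and the arrays stand for mixed cells.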
